A study of Homo sapiens with 4 samples.

Results

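The keratin genes of both human clusters were examined for binding of CTCF, the zinc finger protein of insulators and chromatin loop anchors. Members were the protein-coding genes named KRT and a number on chromosome 12, which holds the type II genes and KRT18, and on chromosome 17, which holds the type I genes. The genes of keratin-associated proteins (KRTAP) were left out. This gave 55 genes of 19821 protein-coding genes on chromosomes 1 to 22 and X, 27 on chromosome 12 and 28 on chromosome 17.

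Keratins are the intermediate filament proteins of epithelia. A type I chain pairs with a type II chain, and each layer of a tissue uses its own pairs, so that neighbouring genes of 1 cluster serve simple epithelium, epidermis, mucosa, cornea or hair. CTCF sites in tandem gene families are known from other loci as borders between stretches of differently used genes.

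CTCF was mapped by chromatin immunoprecipitation and sequencing in cells of the human melanoma line MDA-MB-435, which is long established, grown with 10% fetal bovine serum. The series held 2 replicates of mitotic cells, precipitated for CTCF that carries phosphate on T431, and 2 of untreated asynchronous cells, precipitated with a rabbit antibody to CTCF in any form. Mitotic cells had 2 mM thymidine for 24 h, a release of 3 h and 100 ng/mL nocodazole for 16 h before shake-off. The data used here are the peaks of asynchronous replicate 1; the other 3 samples were not analysed here. No value below therefore has a replicate check, and no test across samples could be made. Neither keratin RNA nor protein was measured, so the peaks say nothing of which keratins these cells use.

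That library held 19210460 tags and 42462 peaks of equal width. Those on chromosomes 1 to 22 and X, 42388 in all, were used. Peak strength is given as normalised tags, the number in a library of 10000000 tags. The 95% intervals of strengths, counts and densities are Poisson intervals. These cover counting error only. Intervals of shares are binomial and treat genes as independent draws, and no interval covers the spread between replicates. The median peak of the list held 20 normalised tags (14.0 to 27.2). The strongest peak inside the keratin clusters held 128.1 normalised tags and lay between KRT80 and KRT7. Most of a promoter window of LINC02874, a long noncoding RNA gene, lay inside this peak (294 of 300 bases). It is shown for this peak because no promoter of a keratin gene overlapped one. It runs 5′ to 3′ on the minus strand (chr12:52213534-52213833, RefSeq, GRCh38.p14). Capitals mark a match to a CTCF core pattern: CC, 3 bases of any kind, AG, 2 bases of any kind and GGC. The centre of the match lay 56 bp from the peak's centre.
LINC02874: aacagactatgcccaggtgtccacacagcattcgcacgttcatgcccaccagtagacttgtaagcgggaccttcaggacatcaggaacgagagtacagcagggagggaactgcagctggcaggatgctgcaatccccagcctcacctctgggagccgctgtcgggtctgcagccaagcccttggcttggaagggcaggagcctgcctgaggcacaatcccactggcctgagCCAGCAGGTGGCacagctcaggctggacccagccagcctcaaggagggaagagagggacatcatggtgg

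Keratin gene ends mostly lacked a CTCF peak. Of the 55 genes, 3 had a peak centred at most 1 kb from an annotated end (5.45%, Clopper-Pearson 95% interval 1.14 to 15.1), against 28.4% of all protein-coding genes. The share was 31.8% over all protein-coding genes of chromosome 12 and 30.1% over those of chromosome 17. Among protein-coding genes between 2.99 and 52.67 kb long, the range of the keratin genes, it was 28.7%. On chromosome 12 the keratin count was 1 of 27 (3.70%, 0.0937 to 19.0), and on chromosome 17 it was 2 of 28 (7.14%, 0.877 to 23.5). Genes of 1 cluster share their surroundings, so these are not independent draws and no test was made.

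The 3 genes were KRT28, KRT18 and KRT36, and none of their peaks was strong. At KRT28, a keratin of the inner root sheath of hair (chr17:40792196-40799959), a peak of 24.5 normalised tags (18.0 to 32.5) lay 226 bp outside the end where transcription finishes. KRT18 encodes the type I keratin of simple epithelium (chr12:52948855-52952906). Its peak of 21.1 normalised tags (15.3 to 29.0) lay inside the gene, 596 bp from the higher-coordinate end. KRT36, a hair shaft keratin (chr17:41486136-41489910), had a peak of 16.4 normalised tags (11.4 to 23.5) inside the gene, 797 bp from its finishing end. All 3 intervals held the list median of 20. The next genes, just outside the 1 kb limit, were KRT81 at 1194 bp with 24.2 normalised tags, KRT85 at 1355 bp with 8.07 and KRT8 at 1520 bp with 12.2.

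**Figure D1:**
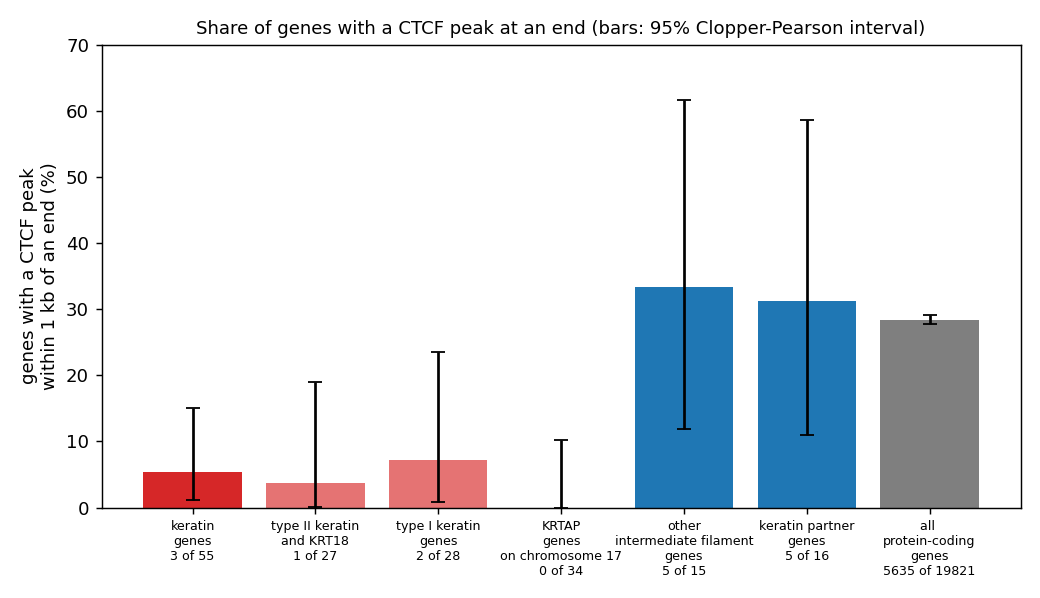
Share of genes (%) whose nearest CTCF peak lies at most 1 kb from an end, with 95% Clopper-Pearson intervals as lines, for the keratin genes, for related lists and, at the right, for all protein-coding genes. The 3 keratin bars stand at 3.70 to 7.14% and no KRTAP gene on chromosome 17 had such a peak, while the other bars stand at 28.4 to 33.3%.

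The shares among related genes outside the clusters were nearer to that of all genes. Of 15 other intermediate filament genes, 5 had a peak at an end (33.3%, 11.8 to 61.6). They were VIM, the vimentin of mesenchymal cells, with 15.4 normalised tags at 875 bp, NEFL and PRPH of neurons, NES, the nestin of progenitor cells, and SYNM, the synemin gene, with 59.6 normalised tags at 131 bp. Of 16 genes for desmosome and plakin proteins that anchor keratin filaments, 5 had one (31.3%, 11.02 to 58.7): JUP, DSC2, DST, PLEC and PPL. The peak at JUP, the plakoglobin gene, held 24.7 normalised tags at 249 bp and lay in the upper flank of the type I cluster itself. Of the 34 KRTAP genes that interrupt the type I cluster, 0 had a peak at an end. The Clopper-Pearson upper limit was 10.3%, or 8.82% when a count of 0 is taken to allow 3 counts. All 34 lie in the same interval between neighbouring peaks, so they are not independent draws, though both limits treat them as such. The intervals of the 2 related lists overlap that of the keratin genes.

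The count moved with the window. Within 5 kb of an end, 22 of 55 keratin genes had a peak (40%), against 53.2% of all protein-coding genes. On chromosome 12 the count was 14 of 27 (51.9%), close to the share of all genes. On chromosome 17 it was 8 of 28 (28.6%). The difference between the clusters was not tested. The median distance from a keratin gene to the nearest peak was 3.70 kb on chromosome 12 and 14.04 kb on chromosome 17, against 4.23 kb for all protein-coding genes.

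Within each role the distances ranged widely. The 5 simple epithelial keratins ran from KRT18 at 0.596 kb to KRT19 at 20.7 kb. Basal epidermal keratins ran from KRT14, the type I keratin of dividing keratinocytes, at 2.53 kb to KRT15 at 16.8 kb. Suprabasal keratins, which replace them as keratinocytes differentiate, ran from KRT1 at 7.07 kb to KRT2 at 15.5 kb. The stress keratins of wounded epidermis ran from KRT6B at 3.70 kb to KRT16 at 30.03 kb. Mucosal and corneal keratins had the highest median of these groups, 34.0 kb, from KRT13 at 4.07 kb to KRT3 of the cornea at 69.4 kb. Hair shaft keratins had the lowest, 2.89 kb over 17 genes, from KRT36 at 0.797 kb to KRT33B at 34.0 kb. Both of these stand on chromosome 17, and the hair shaft genes of chromosome 12 ran from KRT81 at 1.19 kb to KRT86 at 2.89 kb. Inner root sheath keratins ran from KRT28 at 0.226 kb to KRT73 at 24.4 kb, and the remaining 7 genes from KRT77 at 2.83 kb to KRT222 at 34.5 kb. Several neighbouring genes have the same nearest peak, and the ranges of all 8 groups overlapped.

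**Figure D2:**
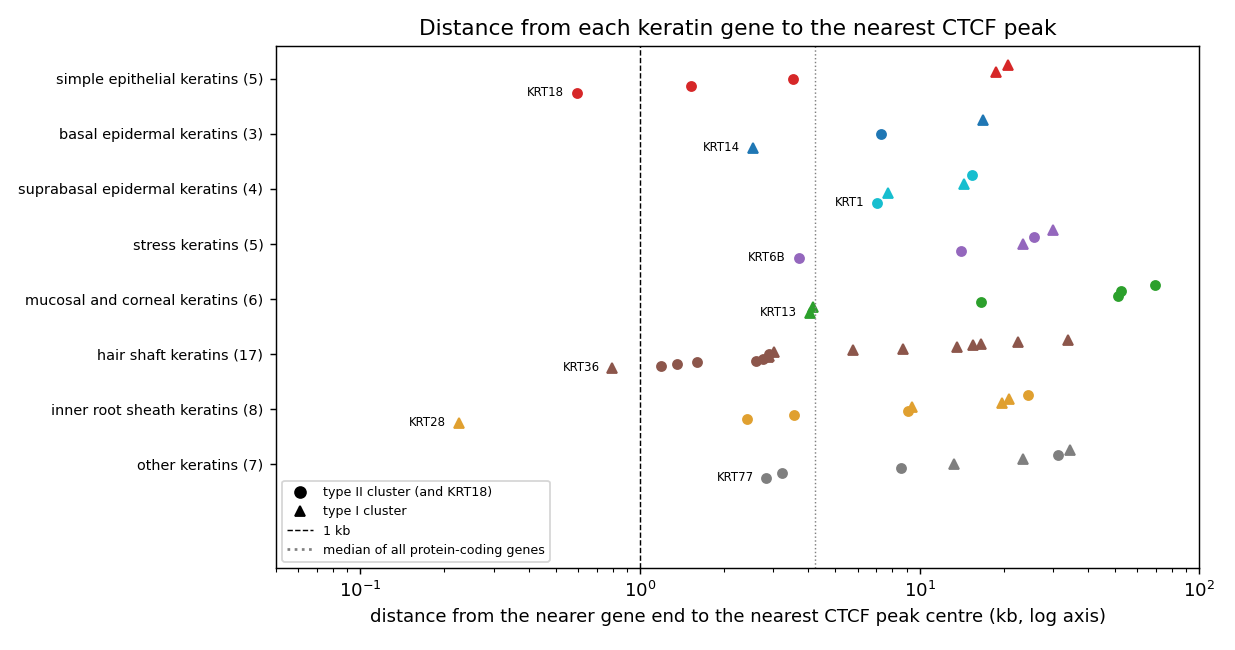
Distance (kb, log axis) from the nearer end of each of the 55 keratin genes to the nearest CTCF peak centre, by role, with circles for chromosome 12 and triangles for chromosome 17. KRT28, KRT18 and KRT36 lie left of the dashed 1 kb line; the dotted line is the 4.23 kb median of all protein-coding genes.

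Partners of a filament pair did not share a distance. KRT8 and KRT18, the simple epithelial pair and neighbours on chromosome 12, were 1.52 and 0.596 kb from a peak. KRT5 and KRT14 of basal epidermis were 7.26 and 2.53 kb away, and KRT1 and KRT10 of the suprabasal layers 7.07 and 14.4 kb. For the corneal pair KRT3 and KRT12 the distances were 69.4 and 4.16 kb, for the mucosal pair KRT4 and KRT13 they were 51.4 and 4.07 kb, and for KRT6A and KRT16 of stressed epidermis they were 14.1 and 30.03 kb. In 4 of these 6 pairs the type I gene was the nearer one, but KRT18 stands in the type II cluster.

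Start sites could be examined for part of the keratin genes. RefSeq promoters, from 250 bases before to 50 after a start, were matched for 34 of the 55 genes, all on the minus strand; the other 21 have no entry in the table used. Of these 34, 0 had a peak centre within 1 kb of a listed start, against 26.8% of the protein-coding genes with a listed promoter. The upper limits were again 10.3% and 8.82%, and these genes too are not independent draws. The closest was KRT8, whose only start in the table (chr12:52926469) lay 1161 bp from a peak of 17.2 normalised tags upstream of it. That start lies inside the annotated gene, and any other start of KRT8 was not examined. RefSeq draws KRT8 over 52.67 kb, up to and over the lower-coordinate end of KRT18, so this peak counts as inside the gene. Next came KRT85 at 2388 bp, KRT39 at 2891 bp and KRT36 at 2977 bp. None of the 38 keratin promoters overlapped a peak, against 13.5% of the promoters of protein-coding genes.

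The letters of these promoters also differed from those of most genes. TATAAA, the TATA box, stood in 21 of 38 keratin promoters (55.3%), against 9.46% of 22132 promoters of protein-coding genes, searched on both strands. It stood in 6 of 15 type II promoters (40%) and 15 of 23 type I promoters (65.2%), and in 29 of 33 KRTAP promoters (87.9%). The GC box GGGCGG stood in 6 of 38 (15.8%) against 56.3%, and the median GC content was 45.7% against 62.3%. The CTCF core pattern stood in 2 of 38 (5.26%), at KRT85 and KRT75, against 12.4%. Both are type II, where the share was 13.3% of 15, and 0 of 23 type I promoters held it. Over all 34961 promoters in the table that pattern stood in 26.9% of those that overlapped a peak and 8.54% of those that did not. A shorter CTCF pattern, AGGGGGC, which can overlap the core pattern, stood in 2 of 38 (5.26%), at KRT5 and KRT32, against 17.5%. These matches are descriptions of letters, not binding sites, and their part in the low count of peaks was not tested.

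TATAAA on the gene's own strand, starting 20 to 40 bases before the start site, was found in 16 of 38 keratin promoters (42.1%) against 3.05% of those of protein-coding genes, a window chosen after the sequences were seen. The count was 3 of 15 type II promoters (20%), 13 of 23 type I promoters (56.5%) and 15 of 33 KRTAP promoters (45.5%). The stretches from 50 bases before to 10 after the start are shown 5′ to 3′ on the minus strand for corneal, mucosal, epidermal, root sheath and hair keratins, with TATAAA in capitals. KRT5 and KRT36 have none and are shown for contrast (RefSeq, GRCh38.p14). They lie at chr12:52796108-52796167 (KRT3), chr12:52777336-52777395 (KRT76), chr17:40822605-40822664 (KRT10), chr17:40799950-40800009 (KRT28), chr17:41350819-41350878 (KRT33A), chr17:41481142-41481201 (KRT35), chr12:52520385-52520444 (KRT5) and chr17:41489901-41489960 (KRT36).
KRT3: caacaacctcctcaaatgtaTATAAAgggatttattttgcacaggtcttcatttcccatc
KRT76: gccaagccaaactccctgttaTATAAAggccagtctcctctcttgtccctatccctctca
KRT10: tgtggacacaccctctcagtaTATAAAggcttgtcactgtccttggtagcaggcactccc
KRT28: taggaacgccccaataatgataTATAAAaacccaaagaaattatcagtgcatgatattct
KRT33A: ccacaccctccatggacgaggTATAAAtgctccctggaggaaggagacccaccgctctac
KRT35: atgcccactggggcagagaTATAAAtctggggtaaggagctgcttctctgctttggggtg
KRT5: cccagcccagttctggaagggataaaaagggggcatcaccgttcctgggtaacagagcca
KRT36: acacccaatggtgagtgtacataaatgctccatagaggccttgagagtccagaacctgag

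The type II cluster (chr12:52168996-52952906) held 30 peaks, or 3.83 per 100 kb (2.58 to 5.46), against 1.61 (1.54 to 1.68) on the whole of chromosome 12. Its 2 flanks of 200 kb held 22 peaks, 5.50 per 100 kb (3.45 to 8.33). Inside the cluster the median peak held 21.9 normalised tags, between 8.07 and 128.1, and in the flanks 54.7, between 13 and 116.1. Of the 30 peaks, 14 lay inside a keratin gene (46.7%, 28.3 to 65.7), and keratin genes cover 43.0% of the cluster. The KRT18 peak was the only one of the 30 within 1 kb of a keratin end.

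Along the type II cluster the peaks fell into 2 dense stretches around a sparser one, a division drawn after the positions were seen. From KRT80 to KRT82, the stretch of KRT7 and the type II hair keratins, 15 peaks were called in 237 kb (6.32 per 100 kb, 3.54 to 10.4). Here lay both of the strongest, 128.1 normalised tags (112.6 to 145) at 19.6 kb from KRT7, a keratin of glandular epithelium, and 100.2 (86.3 to 115) at 6.27 kb from the hair keratin KRT83. The stretch from KRT75 to KRT79 holds the epidermal, root sheath and corneal keratins. There 7 peaks were called in 410 kb (1.71 per 100 kb, 0.686 to 3.52), against 1.61 on the whole of chromosome 12. Their strengths were 9.37, 14.1, 8.85, 28.1, 9.37, 11.7 and 15.4 normalised tags, and only the 28.1 of the peak 2.41 kb from KRT72 exceeded the list median. Local background, the tags per peak width in the surrounding 10 kb, had a median of 1.06 normalised tags at these 7 peaks, against 1.47 over the list, and its part in the weak peaks was not tested. From KRT78 to KRT18 8 peaks were called in 115 kb (6.95 per 100 kb, 3.00 to 13.7), with a median of 47.3 normalised tags.

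**Figure D3:**
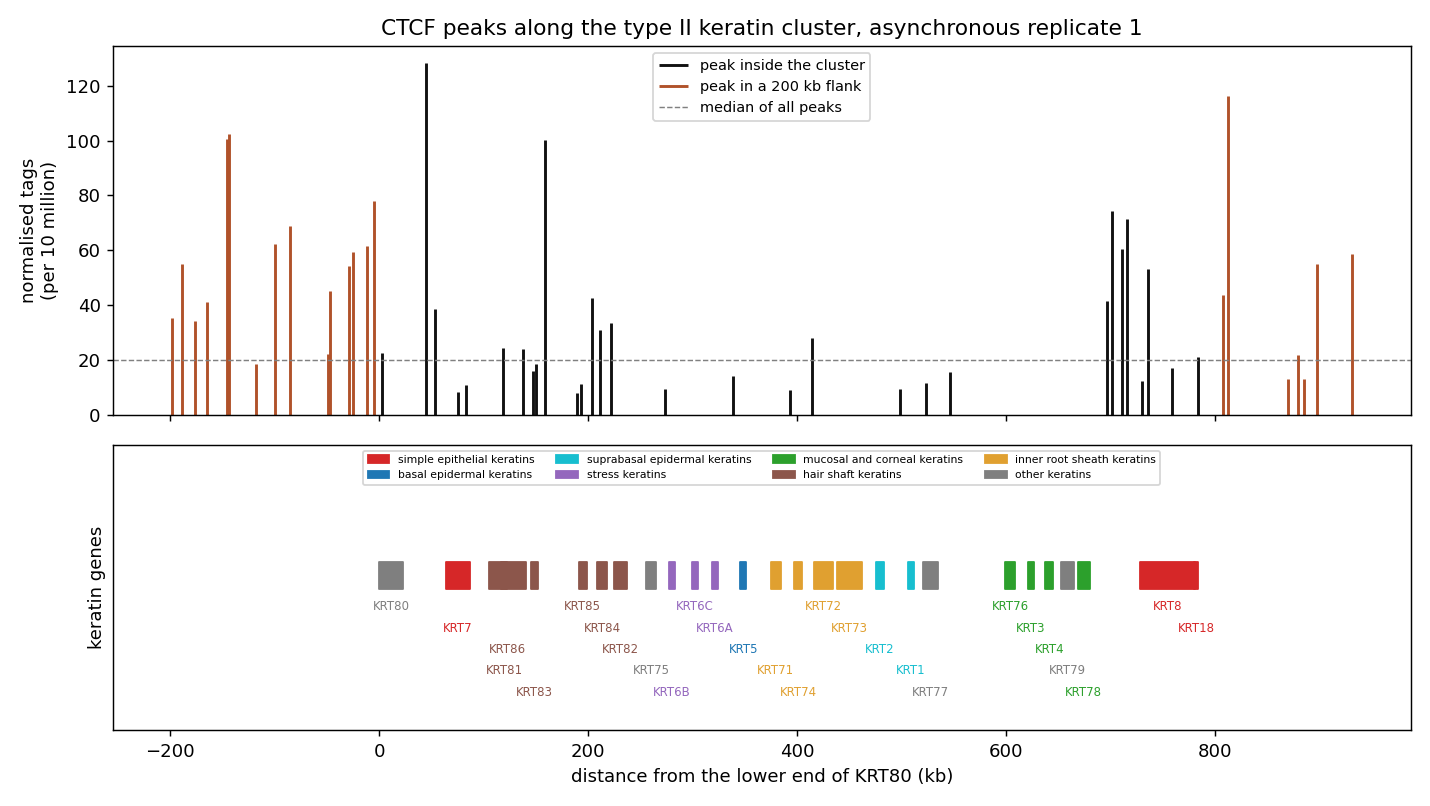
CTCF peaks (height in normalised tags per 10000000) along the type II cluster and its flanks, above the keratin genes coloured by role; the x axis is the distance in kb from the lower end of KRT80. Tall peaks stand at both ends and in the flanks, and between KRT75 and KRT79 no peak exceeds 28.1.

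The longest stretch without a peak in this cluster measured 149.9 kb and held KRT76, KRT3, KRT4, KRT79 and KRT78 entire. Of all 42365 intervals between neighbouring peaks in the list, 10.7% were at least as long. It ended, beside KRT78, at a group of 4 peaks between KRT78 and KRT8 with 41.4, 74.4, 60.4 and 71.3 normalised tags. The next stretches measured 84.5 kb with KRT72, KRT73 and KRT2, and 64.4 kb with KRT6B, KRT6C and KRT6A. KRT5, the partner of KRT14, shared a stretch of 54.9 kb with KRT71. Such stretches rest on called peaks, and weaker binding inside them was not detectable from the list.

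In the lower flank of the type II cluster, 14 of 15 peaks exceeded the list median. The 2 strongest, 102.3 and 100.7 normalised tags, lay in NR4A1, an orphan nuclear receptor gene, on a local background of 8.47 and 8.70. The third, with 78.1 (66.1 to 91.6), stood 4.88 kb below KRT80. In the upper flank 5 of 7 exceeded it. A peak of 116.1 normalised tags (101.3 to 132) lay between KRT18 and EIF4B, a translation initiation factor gene, 28.1 kb from KRT18. The others among the 3 highest scores held 58.8 and 54.9. The peak of 58.8 lay inside IGFBP6, a binding protein of insulin-like growth factors. The peak of 54.9 lay inside SPRYD3, 1.73 kb from the nearer end of TNS2, a tensin gene.

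The type I cluster (chr17:40654665-41624575) held 16 peaks, 1.65 per 100 kb (0.943 to 2.68), against 2.18 (2.09 to 2.29) on the whole of chromosome 17. Without the KRTAP block, which holds no keratin gene, the density was 2.47 (1.41 to 4.01), so the direction against the chromosome turned, and both intervals include the chromosome's value. Its flanks held 18 peaks, 4.50 per 100 kb (2.67 to 7.11). The ratio of cluster to flanks was 0.367 (exact 95% interval 0.175 to 0.762), and that of the type II cluster to its flanks was 0.696 (0.388 to 1.27), whose interval includes equality. With peaks at or above the list's median score only, the type II ratio was 0.430 (0.207 to 0.882), whose interval does not, and the type I ratio 0.258 (0.105 to 0.604). The difference between the 2 ratios was not tested. Only 2 of the 16 peaks lay inside a keratin gene, KRT39 and KRT36 (12.5%, 1.55 to 38.3), and keratin genes cover 18.1% of this cluster. The median peak held 30.1 normalised tags inside the cluster, between 8.85 and 109.1, and 56.8 in the flanks, between 17.2 and 263.4.

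The type I genes stand in 2 stretches around the KRTAP block. From KRT222 to KRT40 6 peaks were called in 332 kb (1.80 per 100 kb, 0.662 to 3.93), of 9.89, 24.5, 41.4, 14.8, 35.7 and 17.7 normalised tags. KRT10, the suprabasal partner of KRT1, lay 14.4 kb from the peak of 41.4. In the 322 kb of the KRTAP block 0 peaks were called, which allows up to 1.14 per 100 kb by the Poisson interval. The interval without a peak was longer, 358.4 kb, with KRT40 and all 34 KRTAP genes, and 1.99% of the intervals of the list were at least as long. It ended at 3 peaks of 35.9, 20.8 and 47.6 normalised tags between KRTAP17-1 and KRT33A.

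From KRT33A to KRT17 7 peaks were called in 278 kb (2.51 per 100 kb, 1.01 to 5.18), and strength changed along this stretch. Among the hair keratins KRT33A to KRT36 the 4 peaks held 37.5, 14.3, 8.85 and 16.4 normalised tags. Then followed 82.8 (70.4 to 96.7) at 4.07 kb from the mucosal keratin KRT13, 109.1 (95.03 to 125) at 16.8 kb from KRT9, the keratin of palms and soles, and 52.1 (42.4 to 63.3) at 2.53 kb from KRT14. The intervals of these 3 lay above those of the 14.3, 8.85 and 16.4 peaks. But that of the 37.5 peak (29.3 to 47.2) overlapped that of the 52.1 peak. So did that of the 47.6 peak (38.1 to 58.2), which lay outside this stretch, 16.6 kb below KRT33A. The stretch was drawn after the values were seen. The peaks of 82.8 and 109.1 enclosed KRT13, KRT15 and the simple epithelial KRT19 in 52.1 kb with no peak between. The peak of 109.1 had a focus ratio, the fraction of its tags that face its centre from the side their strand predicts, of 0.688, against a list median of 0.847.

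**Figure D4:**
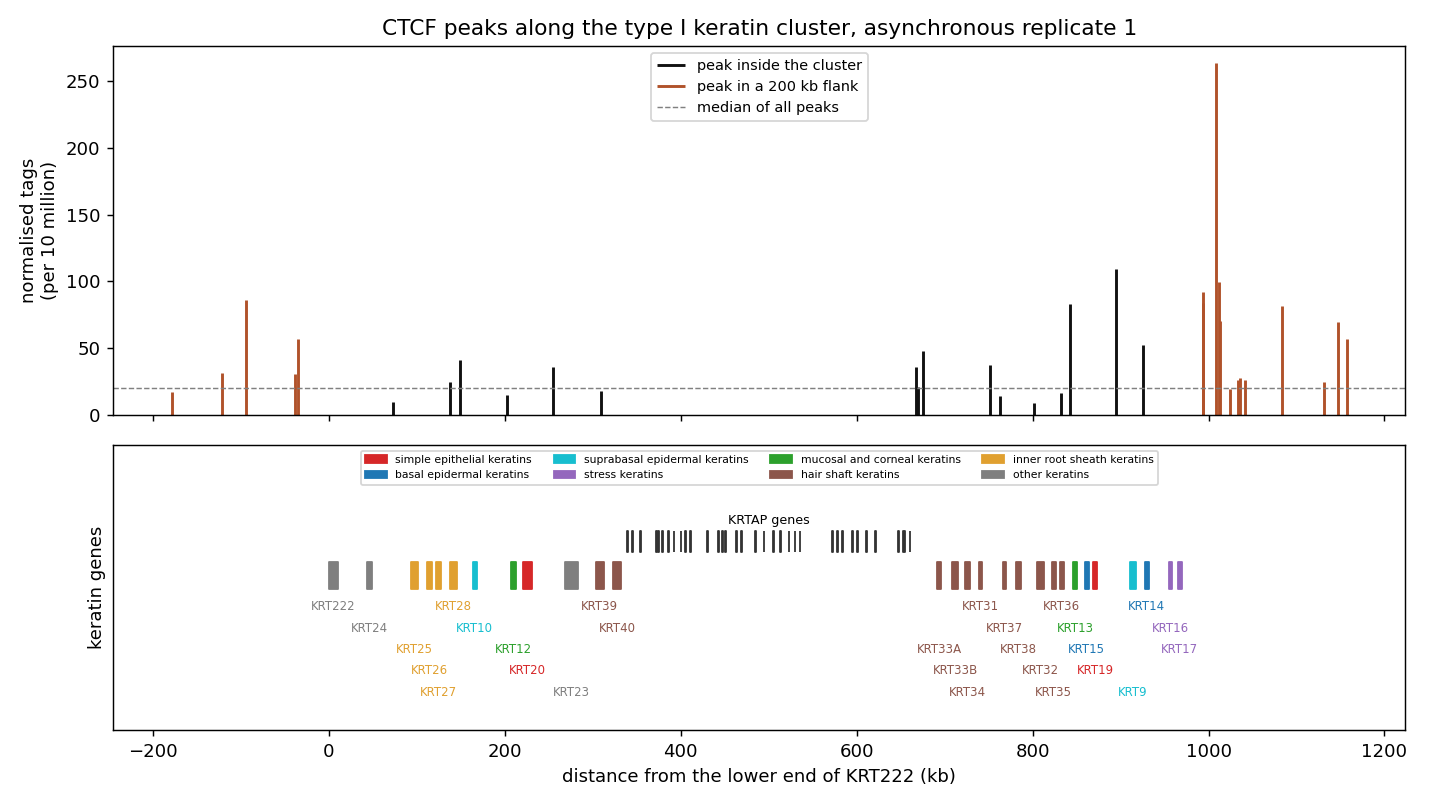
CTCF peaks (height in normalised tags per 10000000) along the type I cluster and its flanks, above the keratin genes coloured by role and the KRTAP genes in dark grey; the x axis is the distance in kb from the lower end of KRT222. No peak stands over the KRTAP genes, and the tallest, 263.4, stands just beyond KRT17.

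Beyond KRT17 stood the highest-scoring peak of chromosome 17. It held 263.4 normalised tags (240.9 to 287), 38.3 kb from KRT17 and 26.04 kb from EIF1, a translation initiation factor gene. Before it stood peaks of 92.1 and 83.8 normalised tags, 23.5 and 24.2 kb from KRT17. After it came peaks of 99.4 and 70.3 normalised tags, on a local background of 15.2 and 16.2, against 9.48 at the peak of 263.4 and 1.47 over the list. The 10 kb around each of these 3 peaks holds tags of the others, and their part in that background was not tested. In the lower flank 4 of 5 peaks exceeded the list median. The strongest held 86.2 inside CCR7, a chemokine receptor gene, and peaks of 56.5 and 30.7 stood 4.85 and 9.18 kb from SMARCE1, which encodes a subunit of a chromatin remodelling complex.

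**Figure D5:**
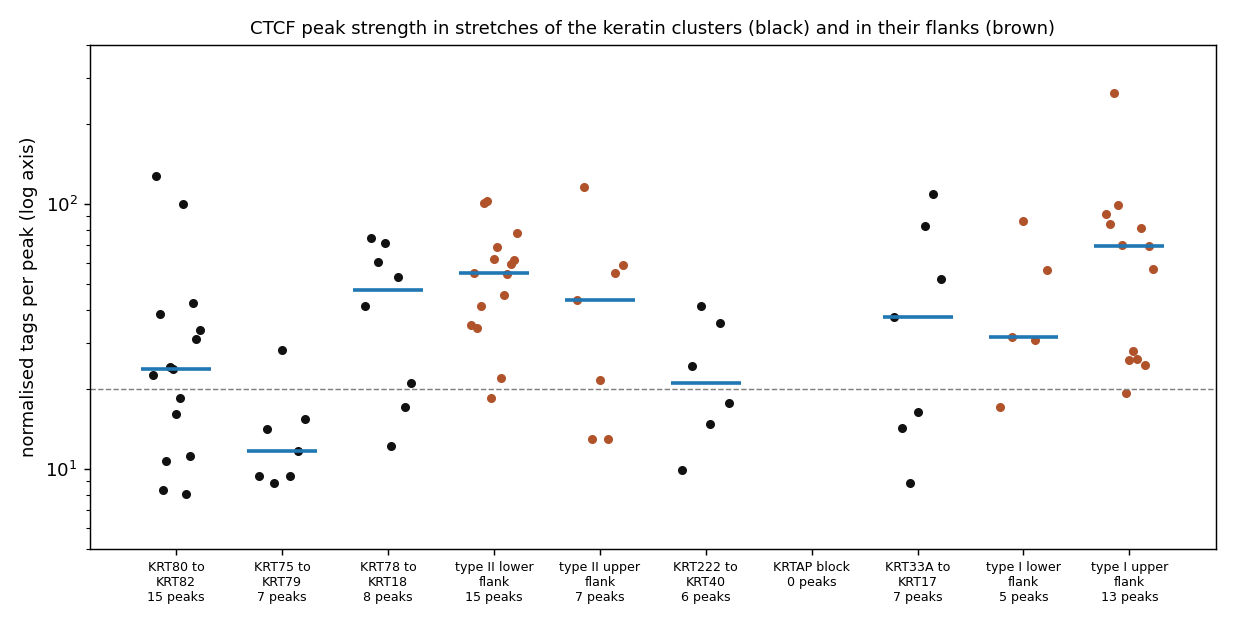
Normalised tags of every peak (log axis) in stretches of the 2 clusters (black) and, right of them, in the lower and upper 200 kb flanks (brown), with medians as blue lines and the list median of 20 as a dashed line. The KRT75 to KRT79 peaks lie lowest, with a median of 11.7, and the type I upper flank highest, with a median of 69.2.

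Keratin gene bodies were also counted. A peak centre lay inside 12 of 55 keratin genes (21.8%, 11.8 to 35.01), against 49.3% of all protein-coding genes and 39.2% of those within the keratin range of lengths. By cluster the counts were 10 of 27 genes on chromosome 12 (37.0%, 19.4 to 57.6) and 2 of 28 on chromosome 17 (7.14%, 0.877 to 23.5). Keratin genes had a median length of 9.17 kb on chromosome 12 and 5.75 kb on chromosome 17, against 24.5 kb for all protein-coding genes. Genes within the keratin range were not matched to them in length, and the part of length in these shares was not tested. Of the 17 hair shaft keratin genes, 7 held a peak inside, beside the 39.2% of genes within the keratin range of lengths. These made up 7 of the 12 keratin genes with a peak inside, and role was not told apart from cluster. The 7 were KRT81, KRT83, KRT84, KRT85 and KRT86 on chromosome 12, and KRT39 and KRT36 on chromosome 17. None was held by the 8 inner root sheath, 6 mucosal and corneal, 5 stress, 4 suprabasal and 3 basal keratin genes. KRT86 and KRT81 overlap, and the peak of 24.2 normalised tags counts for both. KRT8 held 3 peaks, of 12.2, 53.1 and 17.2 normalised tags.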

How the data were processed

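Per the submitters' processing notes, Bowtie2, HOMER and hg38 were used. For their versions, and for how reads from near-identical copies such as KRT6A, KRT6B and KRT6C were placed, the answer is not given in the sources used here. The file headers name HOMER findPeaks, this library and no control, with a false discovery rate of 0.001 (15 tags) and at least 4-fold over the surrounding 10 kb. The deposited tag signal is scaled to 10000000 tags by the authors. The authors' focus ratio is a fraction, and the score, fold over the local region, clonal fold and p-value against it are the authors' caller's own; scores, folds and focus ratios describe or rank peaks within this list, and the p-value and clonal fold were not used.

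Local background was computed as normalised tags divided by fold. Poisson intervals used tags rounded to whole numbers. Gene positions and strands came from RefSeq tables of GRCh38.p14, which shares its chromosome sequences with hg38; rows with positions on other scaffolds were left out by their break in coordinate order. Chromosome densities run from the first to the last annotated gene. A peak was placed by its centre. The members and lists were chosen with earlier results of these data known. Genes named were those with a peak at an end, the nearest and farthest of each role, KRT8, KRT18, KRT5, KRT14, KRT1 and KRT10, the outermost genes, and those nearest the 3 highest-scoring peaks of each cluster and flank. Other genes are named with the stretch, pair or peak they belong to, chosen after their values were seen, as were the stretches. Distances were checked on simulated peaks. The software was scipy 1.17.1, pandas 2.3.3, numpy 2.4.6 and matplotlib 3.10.9 under Python 3.11.15.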

Additional observations from a re-analysis of the deposited data

How the results depend on the processing

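The count of keratin genes with a peak at an end was 3 at 1 kb, and depended on the window. It was 1 of 55 at 500 bp (20.6% of all protein-coding genes) and 22 at 5 kb (53.2%). Counted from listed starts, it was 0 of 34 (26.8%). On chromosome 12, where it was 1 at 1 kb, it was 0, 14 and 0. On chromosome 17, where it was 2, it was 1, 8 and 0, and 1 with peaks at or above the median score. With those peaks the type II cluster held 16 of its 30 peaks and the type I cluster 10 of its 16. Flanks of 100 and 500 kb held 12 and 49 peaks beside the type II cluster, against 22 at 200 kb. Flanks of 500 kb held 45 beside the type I cluster, against 18. Such counts change with the length of the flank, so they do not show that the density of peaks changed. The median of the type I peaks over 1 kb from keratin ends was 35.8 normalised tags, against 30.1. Of 48 alternatives over 14 results, the other 32 moved a count by at most 1.5 times or a value within its interval. Among these 32 the ratio of type II peak density to that of its flanks, 0.696, was 0.430 with peaks at or above the median score, where its interval no longer included 1. No paired analysis was possible because 1 library was analysed, and for the same reason no replicate could be left out. The weakest peak of the list held 6.51 normalised tags, and binding too weak to be called was not detectable at this depth.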

Other observations

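Of 35 keratin pseudogenes on chromosomes 12 and 17, 1 had a peak within 1 kb of an end, against 28.4% of all protein-coding genes. The share over all pseudogenes was not computed, so whether this count is low for pseudogenes was not tested. The pseudogene with a peak was KRT16P1 (chr17:18439908-18442895), outside the clusters, with 9.37 normalised tags (5.55 to 14.8) at 581 bp. Of the 12 pseudogenes inside the clusters 0 had one, and KRT41P, between KRT31 and KRT37, came closest at 1022 bp with 37.5 normalised tags (29.3 to 47.2).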
